A study of Homo sapiens with 9 samples.

Results

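Mitochondrial ribosomal proteins are the nuclear-encoded protein parts of the ribosome inside mitochondria, and their genes carry the symbols MRPL, for the large subunit, and MRPS, for the small subunit. The members were all genes of the table whose symbol, looked up from the Ensembl identifier, is MRPL or MRPS followed by a number and at most a letter A to C, without pseudogenes. There were 62 such genes among 22290, of which 40 were MRPL and 22 were MRPS. The annotation holds 78 symbols of this form, and those without values were not analysed here. Gene expression was measured by RNA sequencing in the human neuroblastoma line IMR-32 to ask how the mitochondrial chaperone TRAP1 (TRAP-1 in the labels) bears on metabolism. There were 9 libraries, 3 from wild-type parental cells (PAR), 3 from cells labelled as TRAP-1 knockdown (KD) and 3 from cells labelled as TRAP-1 overexpression (OE). The deposited values are regularized log2 counts (rlog), adjusted to a common library size, with each gene pulled toward its own mean, so differences between groups are given in log2 units of this scale, are not turned into folds, and may understate differences in counts, more so for weakly expressed genes. The depth of each library cannot be read from these values.

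The KD and OE cells were made before this study, and the sources used here do not say by which construct, or whether each is 1 clone. The labels do not say whether replicates were separate cultures, so the p-values measure the spread between these libraries, which may be technical. Both lines were compared with the same 3 parental libraries, so the KD and OE differences share those values.

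Mitochondrial ribosomes translate the few messages of the mitochondrial genome, which encode core subunits of the respiratory chain and of ATP synthase. Their RNAs come from the mitochondrial genome, whereas every protein is made in the cytosol and imported, so the subunits are assembled from products of separate genomes. Some of the proteins have a counterpart in bacterial ribosomes and others are found only in mitochondrial ribosomes, where they extend the protein shell.

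TRAP1 (ENSG00000126602, chromosome 16, 3651639 to 3717553 of GRCh38), the gene named in the labels, had rlog values of 10.67, 10.66 and 10.65 in the parental libraries, 10.79, 10.79 and 10.83 in those labelled KD and 10.67, 10.63 and 10.74 in those labelled OE. All 3 libraries labelled KD lay above all parental libraries, and those labelled OE overlapped them. By limma the KD minus PAR difference was 0.14 (95% interval 0.088 to 0.19, adjusted p = 1.8e-05) and the OE minus PAR difference was 0.018 (95% interval -0.033 to 0.069, adjusted p = 0.643). After the medians of chromosome blocks were removed (described below) the OE difference was 0.064 and was called. The KD direction goes against its label and the OE call depends on that step, so the groups are named below as libraries labelled KD or OE, and no direction is read as an effect of less or more TRAP1. TRAP1 shares 28.5% of its exonic bases with other annotated genes.

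The cell type was checked with marker lists. Of 16 neuroblastoma markers, 11 had values, 2 had a mean rlog value of at least 8 and 5 were under 5. The most abundant was ISL1, at a mean of 9.29, while the defining markers MYCN (2.54), TH (2.73) and PHOX2A (1.34) were near the bottom of the scale. The log2 of the summed level of the neuroblastoma markers was 10.74, 10.71 and 10.72 in the parental libraries, 10.60, 10.58 and 10.62 in those labelled KD and 10.62, 10.70 and 10.67 in those labelled OE. By limma 6 of the 11 fell and 2 rose for KD, against 26.9% and 26.9% of all genes. For OE 2 fell and 0 rose, against 18% and 16.9%. Of 11 mesenchymal markers, all with values, 5 had a mean of at least 8 and 6 were under 5, and VIM was the most abundant at 15.9. Their summed level was 16.18, 16.18 and 16.18 in the parental libraries, 16.41, 16.42 and 16.40 in those labelled KD and 16.46, 16.44 and 16.47 in those labelled OE, so both lines lay above the parental cells. This sum is mostly VIM, and 2 of the mesenchymal markers fell in the libraries labelled KD, FN1 by 0.96 (adjusted p = 3.0e-33) and LUM by 0.18 (adjusted p = 8.9e-04), while 3 rose. Of 14 epithelial markers, 12 had values, 4 had a mean of at least 8 and 6 were under 5, and KRT18 led at 12.04. The epithelial sum was 12.86, 12.87 and 12.84 in the parental libraries, 12.73, 12.76 and 12.78 in those labelled KD and 12.56, 12.56 and 12.57 in those labelled OE. KRT8 went against these sums and rose by 0.39 for KD (adjusted p = 7.1e-12) and 0.40 for OE (adjusted p = 1.0e-11), KRT18 was called only for OE, at -0.10, and LYPD3 had the largest fall in both, at -0.85 and -1.29. Of 8 blood and endothelial markers, 6 had values, 1 had a mean of at least 8 and 2 were under 5, and PECAM1 led at 9.50. Their sum was 10.07, 10.10 and 10.07 in the parental libraries, 10.21, 10.21 and 10.17 in those labelled KD and 9.63, 9.69 and 9.76 in those labelled OE. PECAM1 rose in the libraries labelled KD, whereas KDR fell there by 1.32 (adjusted p = 9.4e-21) and LYZ by 0.30 (adjusted p = 2.1e-06). These sums moved with the groups, their part in the differences of the ribosomal protein genes was not tested, and in bulk RNA fewer cells of a type and less RNA per cell cannot be told apart.

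All 62 members lay above the median level of the table, but MRPL4 and MRPS2 only just above it, with 50.9% and 51.1% of all genes below them. The mean rlog values of the members ran from 7.20 to 12.6, with a median of 10.9. To compare levels between genes, the log2 of exonic length in kilobases was subtracted from the parental mean. On that scale of level per length the highest were MRPL41 at 11.89, MRPL51 at 11.85 and MRPL24 at 11.51, and the lowest were MRPL19 at 5.21, MRPL4 at 5.29 and MRPS18C at 5.67. The length counts every annotated exon, so a gene with long rare exons is placed too low. Exonic bases shared with another gene made up 27.6% in MRPL51, 21.0% in MRPL19, 21.3% in MRPL4 and 40.2% in MRPS18C, and since the library kit does not mark the strand such reads may belong to either gene.

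Most members were lower in the libraries labelled KD than in the parental libraries. Of the 62 members, 37 (59.7%) fell and 9 (14.5%) rose at a limma adjusted p under 0.05, and 16 were not called. Over all 22290 genes 26.9% fell and 26.9% rose, and among the 9956 genes with a mean rlog value of at least 8, which is closer to the members' level, 39.4% fell and 36.4% rose. The share of members that fell was thus above both backgrounds and the share that rose was below both. Among the MRPL genes 25 of 40 fell and 5 rose, with a median difference of -0.11. Among the MRPS genes 12 of 22 fell and 4 rose, with a median of -0.064. By place in the structure, 25 of 42 large subunit genes fell and 6 rose, at a median of -0.093. There 11 of 19 small subunit genes fell and 3 rose, at -0.069. The median over all genes was -0.00051, and over the genes at 8 or more it was -0.0070. All 3 libraries labelled KD lay below all 3 parental libraries for 36 members and above them for 9, against 29.6% and 29.6% of all genes, and below them for 4053 and above them for 3753 of the 9956 genes at 8 or more, so that members lay below more often than either background. The plot of differences by gene shows negative KD differences in both subunits, with MRPL41, MRPL50 and MRPS25 far from the rest, and few positive ones.

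**Figure D1:**
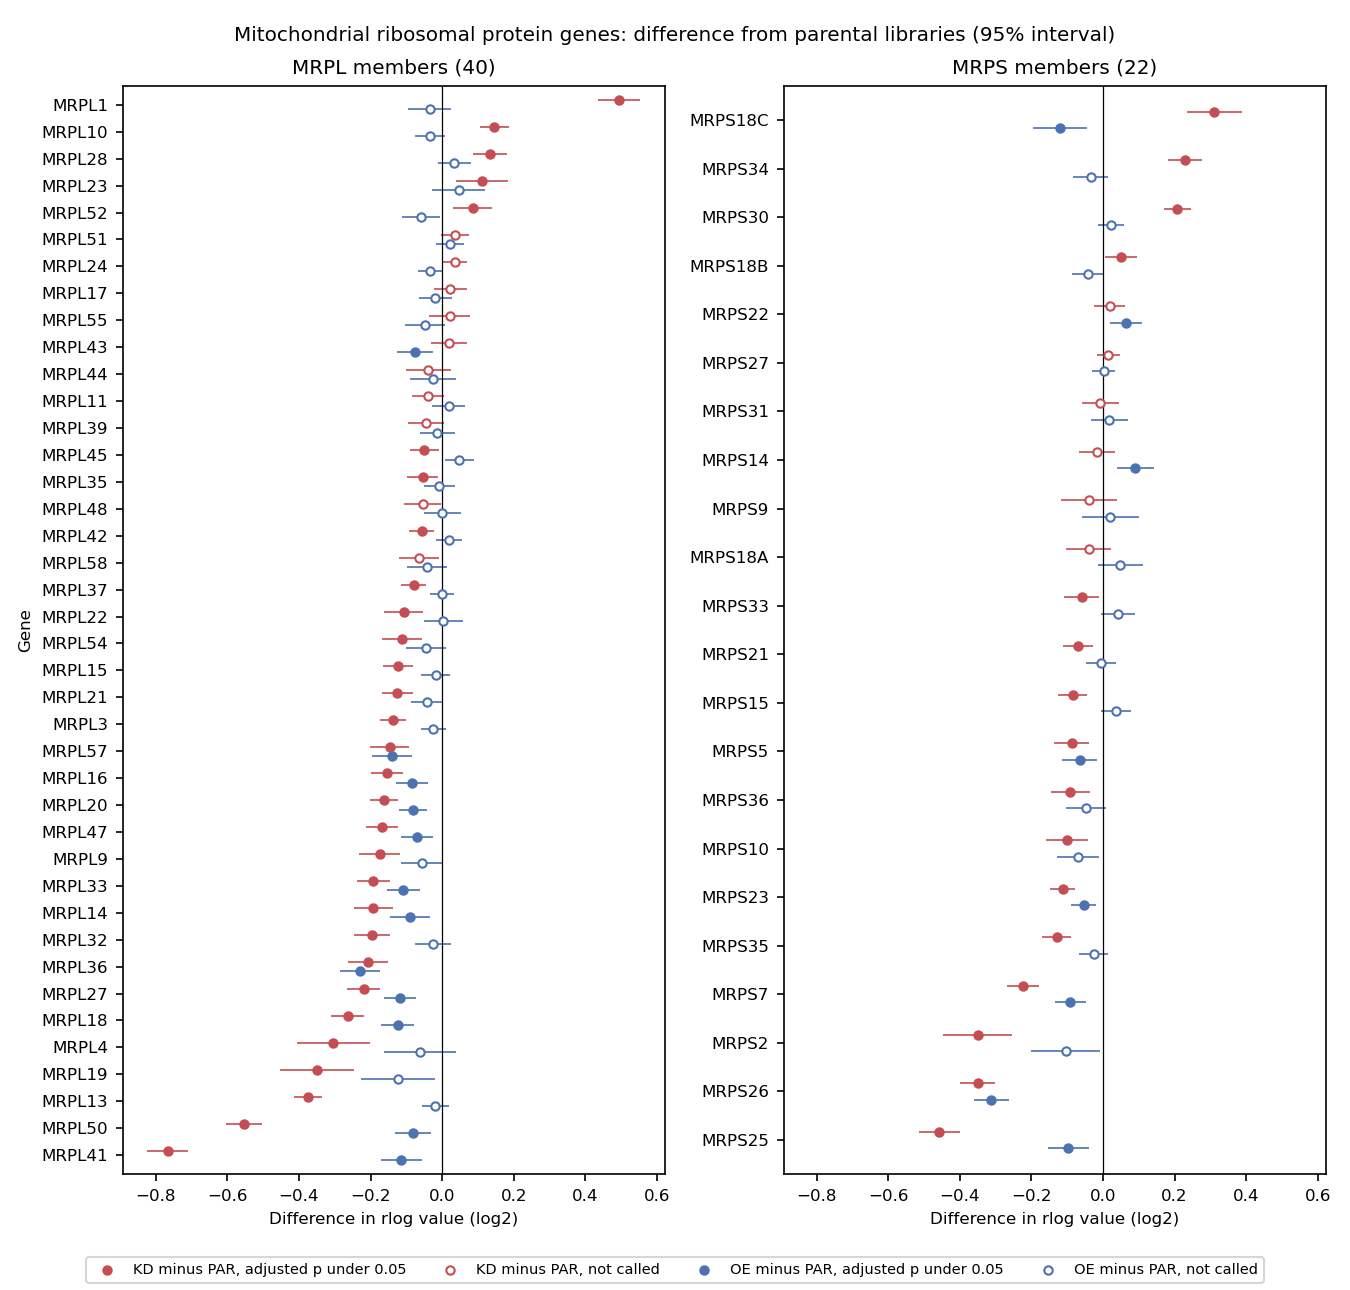
Difference in rlog value (log2) from the parental libraries for each of the 40 MRPL and 22 MRPS genes, in red for libraries labelled KD and in blue for libraries labelled OE, with 95% intervals from limma and filled points where adjusted p was under 0.05. MRPL41 lies lowest and MRPL1 highest in the libraries labelled KD, and most OE differences lie closer to 0.

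Because so many members fell together, their promoters were searched for short sequences known as binding cores of factors that act on housekeeping and mitochondrial genes. RefSeq promoter windows around the gene start, all of the same length, were found for 55 of the 62 members, and both strands were searched in them and in all 27305 RefSeq promoters. The ETS core CCGGAAG was in 23 members (41.8%), against 10.7% of all promoters and 20.9% of the 7926 promoters of genes with a mean rlog value of at least 8. The YY1 core AAGATGGC was in 16 (29.1%), against 3.03% and 6.03%. The core of NRF1, a regulator of genes for mitochondrial proteins, searched as GCATGCGC, was in 6 (10.9%), against 3.27% and 5.87%. The CCAAT box was in 18 (32.7%), against 35.7% and 37.3%, and TATAAA was in 2 (3.64%), against 11.95% and 5.06%. The ETS core was in 4 of 7 members that rose, 12 of 32 that fell and 7 of 16 not called in the libraries labelled KD. In the same order the NRF1 core was in 3, 2 and 1, the YY1 core in 3, 10 and 3, the CCAAT box in 2, 11 and 5 and TATAAA in 0, 2 and 0. The motifs were chosen after the values had been seen, and a match is a run of letters, not a measured binding site.

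The 150 bases before the gene start are given for MRPL41 and MRPL50, the MRPL genes with the largest falls in the libraries labelled KD, for MRPL1, the MRPL gene with the largest rise there, for MRPS30, which rose, for MRPS26, which fell in both lines, and for MRPL20, which fell by 0.16 (adjusted p = 9.8e-09) and whose promoter holds the ETS core. They are RefSeq sequences of GRCh38.p14, written 5′ to 3′ on the gene's strand, at chr9:137551729-137551878 (plus strand) for MRPL41, chr9:101398619-101398768 (minus) for MRPL50, chr4:77862680-77862829 (plus) for MRPL1, chr5:44808797-44808946 (plus) for MRPS30, chr20:3045902-3046051 (plus) for MRPS26 and chr1:1407294-1407443 (minus) for MRPL20. Capitals mark the NRF1, ETS and YY1 cores and CCAAT boxes on either strand. The MRPL41 stretch holds 4 CCAAT boxes, that of MRPS30 holds 2 and that of MRPL50 holds 1. The ETS core occurs 1 time for MRPS26 and 2 times for MRPL20, and the MRPL1 stretch holds none of these letters. These stretches are shorter than the windows counted above, in which MRPL50, MRPS30 and MRPL20 also hold the YY1 core.
MRPL41: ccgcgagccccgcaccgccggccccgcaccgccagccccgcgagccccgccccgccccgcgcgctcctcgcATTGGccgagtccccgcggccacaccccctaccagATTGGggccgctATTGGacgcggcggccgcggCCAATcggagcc
MRPL50: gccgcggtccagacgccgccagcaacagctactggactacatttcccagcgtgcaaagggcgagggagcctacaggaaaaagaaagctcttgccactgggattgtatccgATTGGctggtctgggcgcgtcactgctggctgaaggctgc
MRPL1: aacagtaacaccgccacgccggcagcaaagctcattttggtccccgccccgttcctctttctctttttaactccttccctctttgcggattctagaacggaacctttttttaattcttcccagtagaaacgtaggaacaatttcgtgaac
MRPS30: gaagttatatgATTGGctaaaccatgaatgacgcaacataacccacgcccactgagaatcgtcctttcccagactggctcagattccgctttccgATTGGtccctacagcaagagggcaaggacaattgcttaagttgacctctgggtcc
MRPS26: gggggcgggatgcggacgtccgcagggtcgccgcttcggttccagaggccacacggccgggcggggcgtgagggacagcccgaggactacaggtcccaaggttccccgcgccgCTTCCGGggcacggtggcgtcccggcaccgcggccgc
MRPL20: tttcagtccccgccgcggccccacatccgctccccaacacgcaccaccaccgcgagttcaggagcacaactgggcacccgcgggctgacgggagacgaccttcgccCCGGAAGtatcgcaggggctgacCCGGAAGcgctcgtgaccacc

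Among the large subunit genes the deepest falls were in MRPL41, MRPL50, MRPL13 and MRPL19. MRPL41 (ENSG00000182154, chromosome 9, 137551879 to 137552555), a protein found only in mitochondrial ribosomes, had rlog values of 11.11, 11.09 and 11.14 in the parental libraries, 10.34, 10.31 and 10.39 in those labelled KD and 10.94, 10.98 and 11.08 in those labelled OE. Every library labelled KD lay far under the other groups, and those labelled OE lay just under the parental ones. The KD minus PAR difference by limma was -0.77 (95% interval -0.82 to -0.71, adjusted p = 2.8e-21). MRPL50 (ENSG00000136897, chromosome 9, 101387633 to 101398618), also specific to mitochondria, had values of 10.68, 10.72 and 10.70 in the parental libraries, 10.16, 10.13 and 10.14 in those labelled KD and 10.65, 10.63 and 10.57 in those labelled OE. The groups had the same order without overlap, and the KD difference was -0.55 (95% interval -0.60 to -0.50, adjusted p = 5.6e-19). MRPL50 has 3 annotated pseudogenes, from which reads were not told apart here. MRPL13 (ENSG00000172172, chromosome 8, 120380761 to 120445402), the counterpart of a bacterial protein, had values of 11.74, 11.75 and 11.77 in the parental libraries, 11.37, 11.37 and 11.38 in those labelled KD and 11.76, 11.72 and 11.72 in those labelled OE. It was low only in the libraries labelled KD, while the other groups overlapped, and its KD difference was -0.38 (95% interval -0.41 to -0.34, adjusted p = 2.0e-17). MRPL19 (ENSG00000115364, chromosome 2, 75646783 to 75690851) had values of 8.36, 8.28 and 8.48 in the parental libraries, 7.99, 7.92 and 8.16 in those labelled KD and 8.18, 8.26 and 8.32 in those labelled OE. Its spread within groups was wider at this lower level, the KD values lay below all parental ones, and the difference was -0.35 (95% interval -0.45 to -0.25, adjusted p = 4.9e-07). After block medians were removed the differences were -0.42 for MRPL41, -0.21 for MRPL50, -0.13 for MRPL13 and -0.34 for MRPL19, so that the order of the falls depends on that step.

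The MRPL genes that rose most were MRPL1, MRPL10, MRPL28 and MRPL23. MRPL1 (ENSG00000169288, chromosome 4, 77862830 to 77952785), which forms the mobile L1 stalk beside the exit site for spent tRNA, had values of 9.27, 9.28 and 9.29 in the parental libraries, 9.81, 9.77 and 9.75 in those labelled KD and 9.25, 9.27 and 9.23 in those labelled OE. The libraries labelled KD stood alone at the top, those labelled OE lay just under the parental ones, and the KD difference by limma was 0.49 (95% interval 0.44 to 0.55, adjusted p = 7.6e-16). After the medians of chromosome blocks were removed it was 0.10, below MRPL10 (0.14), MRPL28 (0.12) and MRPL23 (0.12). MRPL10 (ENSG00000159111, chromosome 17, 47823272 to 47831541), the base of the stalk that recruits translation factors, had values of 11.47, 11.45 and 11.45 in the parental libraries, 11.60, 11.57 and 11.63 in those labelled KD and 11.40, 11.43 and 11.44 in those labelled OE. It was again higher in all libraries labelled KD, by 0.15 (95% interval 0.10 to 0.19, adjusted p = 2.2e-07). MRPL11, its neighbour in the same stalk, was not called in the libraries labelled KD, at -0.040 (adjusted p = 0.128). MRPL28 (ENSG00000086504, chromosome 16, 366969 to 371289) had values of 11.68, 11.70 and 11.68 in the parental libraries, 11.77, 11.81 and 11.88 in those labelled KD and 11.68, 11.71 and 11.76 in those labelled OE, with the KD group above the parental group by 0.13 (95% interval 0.086 to 0.18, adjusted p = 9.4e-06). MRPL23 (ENSG00000214026, chromosome 11, 1947278 to 1984522), whose bacterial counterpart sits at the rim of the exit tunnel, had values of 9.04, 8.98 and 9.02 in the parental libraries, 9.08, 9.12 and 9.17 in those labelled KD and 8.99, 9.03 and 9.15 in those labelled OE. Its KD libraries lay above the parental ones by 0.11 (95% interval 0.038 to 0.18, adjusted p = 0.00947), but the call was lost without parental library 2 (0.095) or without KD library 3 (0.088), and adjusted p ranged from 0.00418 to 0.065 over all 13 settings.

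In the small subunit MRPS25, MRPS26, MRPS2 and MRPS7 fell most in the libraries labelled KD. MRPS25 (ENSG00000131368, chromosome 3, 15009611 to 15065339), a mitochondria-specific protein, had values of 9.95, 9.94 and 9.95 in the parental libraries, 9.46, 9.47 and 9.54 in those labelled KD and 9.86, 9.83 and 9.87 in those labelled OE. The KD libraries lay well under both other groups and the OE libraries slightly under the parental ones, with a KD difference by limma of -0.46 (95% interval -0.52 to -0.40, adjusted p = 2.8e-15). After block medians were removed it was -0.13, a smaller fall than those of MRPS26 (-0.21) and MRPS7 (-0.20). It shares 45.9% of its exonic bases with other genes, so its value is less certain. MRPS26 (ENSG00000125901, chromosome 20, 3046052 to 3048250), also mitochondria-specific, had values of 11.35, 11.39 and 11.37 in the parental libraries, 10.97, 11.03 and 11.05 in those labelled KD and 11.04, 11.03 and 11.10 in those labelled OE. Here both lines lay below all parental libraries and overlapped each other, and the KD difference was -0.35 (95% interval -0.40 to -0.30, adjusted p = 4.0e-14). MRPS2 (ENSG00000122140, chromosome 9, 135499984 to 135504673), which has a bacterial counterpart, had values of 7.45, 7.40 and 7.29 in the parental libraries, 6.96, 7.11 and 7.01 in those labelled KD and 7.24, 7.29 and 7.29 in those labelled OE. The KD libraries were the lowest and the OE libraries reached into the parental range, with a KD difference of -0.35 (95% interval -0.45 to -0.25, adjusted p = 1.2e-07), which was gone after block medians were removed (-0.00060, adjusted p = 0.992). MRPS7 (ENSG00000125445, chromosome 17, 75261674 to 75266376), a protein of the head of the subunit, had values of 11.30, 11.27 and 11.26 in the parental libraries, 11.05, 11.07 and 11.04 in those labelled KD and 11.17, 11.17 and 11.22 in those labelled OE. The groups were ordered without overlap, parental above OE above KD, and the KD difference was -0.22 (95% interval -0.27 to -0.18, adjusted p = 1.1e-10).

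Only 3 MRPS genes rose past the threshold with all KD libraries above all parental ones. MRPS18C (ENSG00000163319, chromosome 4, 83455932 to 83469735), 1 of 3 human genes related to bacterial protein S18, had values of 7.94, 7.95 and 7.97 in the parental libraries, 8.24, 8.27 and 8.28 in those labelled KD and 7.84, 7.87 and 7.79 in those labelled OE. It was highest in the libraries labelled KD, by 0.31 (95% interval 0.24 to 0.39, adjusted p = 1.4e-08), and lowest in those labelled OE, but after the medians of chromosome blocks were removed the KD difference turned to -0.10 (adjusted p = 0.0217). Its value is uncertain, since it shares 40.2% of its exonic bases and has 3 annotated pseudogenes. MRPS34 (ENSG00000074071, chromosome 16, 1771890 to 1773150), which is needed for a stable small subunit, had values of 11.38, 11.41 and 11.41 in the parental libraries, 11.58, 11.65 and 11.65 in those labelled KD and 11.35, 11.32 and 11.42 in those labelled OE, so that only the KD libraries stood out, by 0.23 (95% interval 0.18 to 0.28, adjusted p = 4.2e-10), and 31.2% of its exonic bases are shared. MRPS30 (ENSG00000112996, chromosome 5, 44808947 to 44820428), which carries an MRPS symbol but sits in the large subunit, had values of 12.30, 12.33 and 12.36 in the parental libraries, 12.56, 12.52 and 12.55 in those labelled KD and 12.38, 12.35 and 12.33 in those labelled OE. The KD libraries were again above the rest, by 0.21 (95% interval 0.17 to 0.25, adjusted p = 1.2e-11). The remaining call was MRPS18B, another S18 relative, at 0.051 (adjusted p = 0.0474), which overlapped the parental range and was lost under several settings, among them without parental library 3 (0.025), KD library 2 (0.048) or KD library 3 (0.044), where adjusted p ranged from 0.018 to 0.537 over all 13 settings. MRPS18A, the S18 relative of the large subunit, had a difference of -0.040 (adjusted p = 0.289) and was not called.

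Other members chosen for their roles mostly had small differences. MRPL3, a core protein near the catalytic centre, fell by 0.14 (adjusted p = 4.8e-08) in all 3 libraries labelled KD. MRPL44, a protein with a fold related to ribonuclease III, had a KD difference of -0.039 (adjusted p = 0.304) and an OE difference of -0.026 (adjusted p = 0.584). MRPL58, a peptide release factor built into the large subunit, stood at -0.064 (adjusted p = 0.051) for KD and -0.043 (adjusted p = 0.255) for OE, and its KD difference was called under 7 settings, among them without parental library 1 (-0.079) and without KD library 1 (-0.084). MRPS27, a protein with RNA-binding repeats of the pentatricopeptide kind, was at 0.015 (adjusted p = 0.442) for KD and 0.0015 (adjusted p = 0.961) for OE, and the KD value was called with quantile normalization (0.043). The plot of values by library shows for 14 members how far each library lay from the parental mean.

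**Figure D2:**
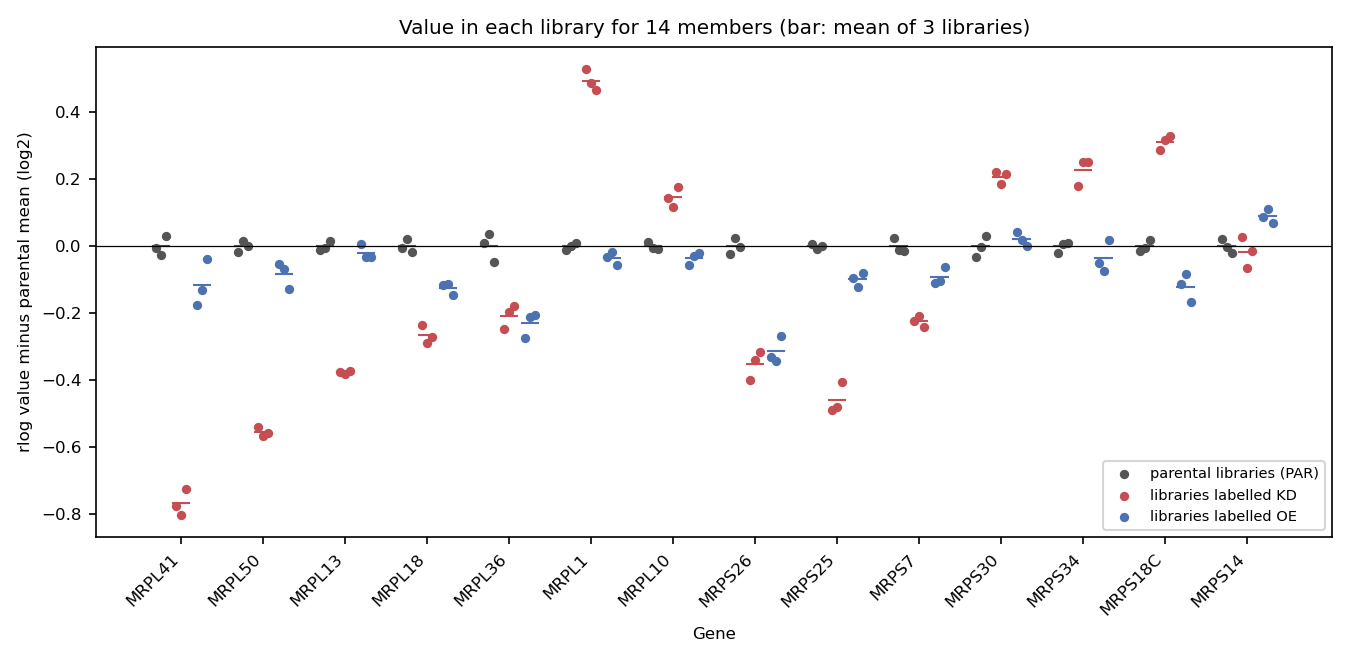
Each point is the rlog value (log2) of 1 library minus the mean of the 3 parental libraries, for 14 members, coloured by group, with a bar at the group mean. Libraries labelled KD lie apart from the parental ones in all but MRPS14, upward for MRPL1, MRPL10, MRPS30, MRPS34 and MRPS18C and downward for the others.

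Members were also split by the systematic names of their proteins, into 35 with a name shared with bacteria and 26 with a name used only for mitochondria. MRPS18A and MRPS18B are in the second class although both are related to bacterial S18. In the libraries labelled KD 24 (68.6%) of the 35 fell and 5 (14.3%) rose, with a median difference of -0.12, and 12 (46.2%) of the 26 fell and 4 (15.4%) rose, with a median of -0.052, against 39.4% and 36.4% of genes at a mean of 8 or more. In the libraries labelled OE the classes had 11 (31.4%) lower and 1 (2.86%) higher at a median of -0.042, and 7 (26.9%) lower and 1 (3.85%) higher at a median of -0.025, against 31.5% and 25.2%, so neither class fell more often than genes at that level. A difference between the classes was not tested. MRPS36 was in neither class, because its product belongs to the alpha-ketoglutarate dehydrogenase complex, and without it 36 of 61 members fell and 9 rose.

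Fewer members differed from the parental libraries in the libraries labelled OE. By limma 18 of 62 (29.0%) fell, 2 (3.23%) rose and 42 were not called, against 18% lower and 16.9% higher over all genes and 31.5% lower and 25.2% higher among genes at a mean of 8 or more. The share that fell was close to the background of genes at that level and is not a result about the members, while the share that rose was below both backgrounds. The split of 2 higher and 18 lower became 1 and 27 with libraries centred on their median, 5 and 16 with quantile normalization and 6 and 21 after the medians of chromosome blocks were removed. Without parental library 1 there was 1 higher member, and without parental library 2 there were 4. Of the 40 MRPL genes 12 fell and 0 rose by limma, at a median difference of -0.038. The number higher was 1 at an unadjusted p under 0.05, 2 with quantile normalization and 3 after block medians were removed. It was at most 1 under each other setting. Of the 22 MRPS genes 6 fell and 2 rose, at a median of -0.030, which was -0.011 without parental library 2. The median over all genes was 0.00039, and it was -0.011 over those at 8 or more. All 3 libraries labelled OE lay below all parental ones for 23 members and above them for 3, against 22% and 21.2% of all genes. Of the 9956 genes at 8 or more 3531 lay below in this way, a share close to that of the members.

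The large subunit genes that fell most in the libraries labelled OE were MRPL36, MRPL57, MRPL18 and MRPL27. MRPL36 (ENSG00000171421, chromosome 5, 1798385 to 1801366), whose bacterial counterpart is among the smallest ribosomal proteins, had values of 10.45, 10.48 and 10.40 in the parental libraries, 10.20, 10.25 and 10.27 in those labelled KD and 10.17, 10.23 and 10.24 in those labelled OE. Both lines lay under every parental library and overlapped each other, and the limma OE minus PAR difference was -0.23 (95% interval -0.29 to -0.17, adjusted p = 3.6e-08) beside a KD difference of -0.21. MRPL57 (ENSG00000173141, chromosome 13, 21176658 to 21179084) had values of 10.45, 10.47 and 10.50 in the parental libraries, 10.28, 10.33 and 10.37 in those labelled KD and 10.36, 10.29 and 10.36 in those labelled OE. The lines again overlapped below the parental range, with an OE difference of -0.14 (95% interval -0.20 to -0.085, adjusted p = 9.1e-05) and a KD difference of -0.15. MRPL57 has 5 annotated pseudogenes and MRPL36 has 1, from which reads were not told apart. MRPL18 (ENSG00000112110, chromosome 6, 159789812 to 159798436), a protein of the central protuberance, had values of 11.08, 11.10 and 11.06 in the parental libraries, 10.84, 10.79 and 10.81 in those labelled KD and 10.96, 10.97 and 10.93 in those labelled OE. MRPL27 (ENSG00000108826, chromosome 17, 50367857 to 50373207), which lies by the catalytic centre, had values of 11.10, 11.07 and 11.11 in the parental libraries, 10.88, 10.85 and 10.90 in those labelled KD and 10.95, 10.97 and 11.01 in those labelled OE. In both genes the OE libraries lay between the KD and the parental ones without overlap, with OE differences of -0.12 (95% interval -0.17 to -0.079, adjusted p = 3.4e-05) for MRPL18 and -0.12 (95% interval -0.16 to -0.072, adjusted p = 7.6e-05) for MRPL27.

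In the small subunit MRPS14 and MRPS22 were the members that rose in the libraries labelled OE. MRPS14 (ENSG00000120333, chromosome 1, 175010789 to 175023425), with a bacterial counterpart, had values of 10.57, 10.54 and 10.52 in the parental libraries, 10.57, 10.48 and 10.53 in those labelled KD and 10.63, 10.65 and 10.61 in those labelled OE. The OE libraries lay above all others, whereas KD and parental libraries overlapped, and the OE difference by limma was 0.090 (95% interval 0.039 to 0.14, adjusted p = 0.00498), with 14.9% of exonic bases shared. MRPS22 (ENSG00000175110, chromosome 3, 139005806 to 139360497), specific to mitochondria, had values of 11.21, 11.25 and 11.23 in the parental libraries, 11.28, 11.21 and 11.24 in those labelled KD and 11.30, 11.28 and 11.29 in those labelled OE, all 3 OE libraries being above the parental ones by 0.064 (95% interval 0.020 to 0.11, adjusted p = 0.0194). That call was lost with centred libraries (0.046), after block medians were removed (0.039), without parental library 1 (0.053) and without OE library 1 (0.058), adjusted p ranged from 0.00303 to 0.141 over all 13 settings, and 42.8% of its exonic bases are shared. MRPS26 fell most, with a difference of -0.31 (95% interval -0.36 to -0.26, adjusted p = 2.8e-12), or -0.17 after block medians were removed. MRPS18C, the member called in opposite directions in the libraries labelled KD and OE, came next at -0.12 (95% interval -0.20 to -0.043, adjusted p = 0.0117), followed by MRPS25 at -0.10 (95% interval -0.16 to -0.040, adjusted p = 0.00671) and MRPS7 at -0.092 (95% interval -0.14 to -0.048, adjusted p = 9.1e-04). After block medians were removed the MRPS18C difference was negative for KD too, so the opposite directions did not hold there. Its OE call was lost without OE library 3 (-0.10) and after block medians were removed (-0.043), where adjusted p ranged from 0.00289 to 0.407 over all 13 settings.

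Side by side, 11 MRPL genes fell in both lines, 14 fell in the libraries labelled KD alone, 5 rose in those labelled KD alone, MRPL43 fell in those labelled OE alone and 9 were called in neither. The MRPL43 value was -0.076 (adjusted p = 0.0142), with 38.1% of exonic bases shared, and its call was lost under 4 settings, with no variance trend (-0.076), with quantile normalization (-0.059) and without parental library 1 (-0.064) or OE library 2 (-0.065). MRPL43 was named after its value had been seen. Of the MRPS genes 5 fell in both, 7 fell and 3 rose in the libraries labelled KD alone, 2 rose in those labelled OE alone, 1 was called in opposite directions and 4 were called in neither. The lines share the parental libraries, so these joint counts are a description.

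The direct comparison of the lines asks whether they differ from each other. By limma 33 of 62 members (53.2%) had higher values under the OE label than under the KD label and 11 (17.7%) were lower, against 23.5% and 23.8% of all genes and 33.3% and 34.9% of genes at 8 or more. The higher share was above both backgrounds. Among the MRPL genes 23 were higher and 7 lower, at a median of 0.074. Among the MRPS genes 10 were higher and 4 lower, at 0.052. The members furthest above were MRPL41 by 0.65 (95% interval 0.60 to 0.71, adjusted p = 3.3e-19), MRPL50 by 0.47 (95% interval 0.42 to 0.52, adjusted p = 5.5e-17) and MRPS25 by 0.36 (95% interval 0.30 to 0.42, adjusted p = 1.5e-12). Those furthest below were MRPL1 at -0.53 (95% interval -0.59 to -0.47, adjusted p = 2.0e-16), MRPS18C at -0.43 (95% interval -0.51 to -0.35, adjusted p = 1.6e-11) and MRPS34 at -0.26 (95% interval -0.31 to -0.22, adjusted p = 2.5e-11). After block medians were removed the difference was 0.41 for MRPL41, 0.19 for MRPL50 and -0.21 for MRPS34. That of MRPS25 was 0.019, that of MRPL1 was -0.056 and that of MRPS18C was 0.060, these 3 calls were lost, and 7 members were lower in all.

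Some members moved with the genes around them on the chromosome. For each member the median difference was taken over other genes in the same block of 20 Mb with a mean rlog value of at least 8. Across the 62 members the KD difference correlated with this block median at a Pearson r of 0.80 and a Spearman rho of 0.49, and the OE difference at 0.38 and 0.16. Over 9922 genes at that level the Pearson values were 0.33 and 0.20. Genes are not independent replicates, and members of a block share their neighbours and all libraries. The plot against chromosome neighbours shows that a few members with strong blocks lie far from the rest. On chromosome 9 the KD block medians were -0.35 for MRPL41, -0.36 for MRPL50 and -0.35 for MRPS2, which left differences of -0.42, -0.21 and -0.00060, so that MRPS2 was no longer called. On chromosome 4 the blocks of MRPL1 and MRPS18C stood at 0.40 and 0.41, leaving 0.10 for MRPL1 and turning MRPS18C to -0.10. MRPS25 on chromosome 3 had a block median of -0.33 and kept -0.13, and MRPL13 on chromosome 8 had -0.25 and kept -0.13. MRPS26 on chromosome 20 kept -0.21 for KD beside a block of -0.11, and -0.17 for OE beside a block of -0.14.

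**Figure D3:**
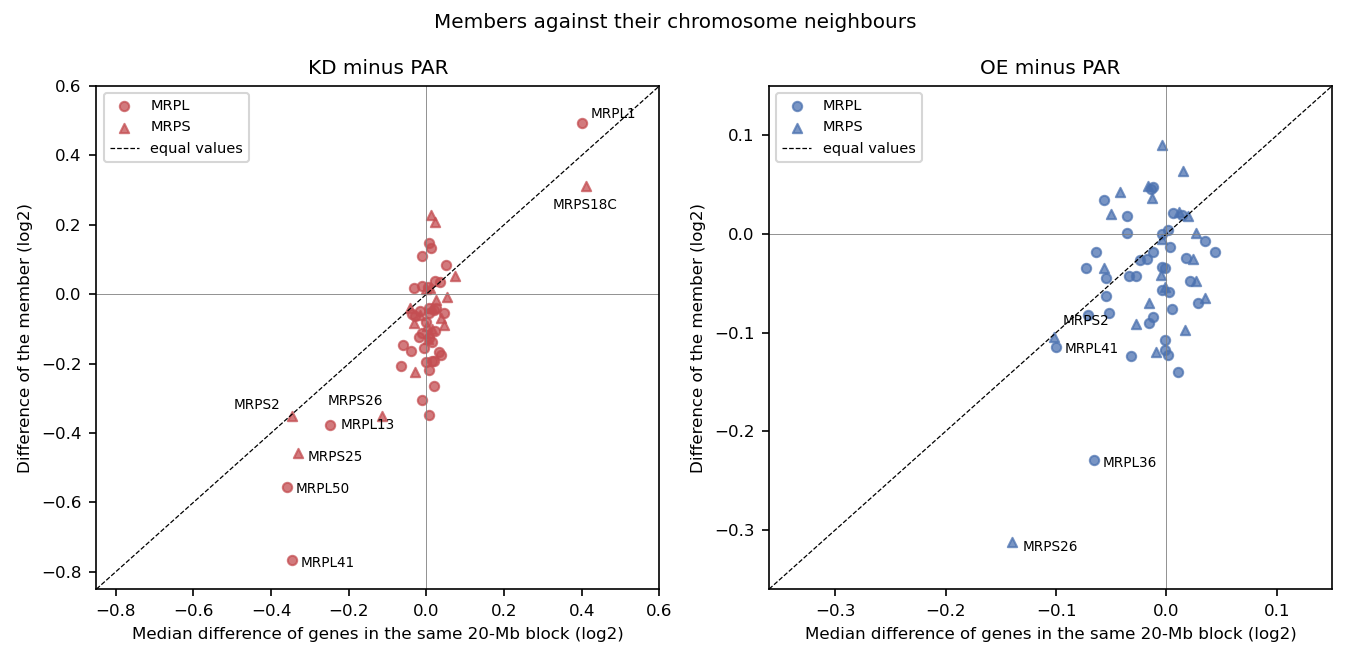
Difference of each member (log2, vertical) against the median difference of genes in the same 20-Mb block (log2, horizontal) for KD minus PAR and OE minus PAR, circles for MRPL and triangles for MRPS, with a dashed line of equal values. For KD, MRPL41, MRPL50, MRPS2, MRPS25 and MRPL13 lie at low block medians and MRPL1 and MRPS18C at high ones, MRPS26 lies at -0.11, and the other members lie closer to a block median of 0.

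Most members lay in blocks whose median was near 0, and the median of the block medians for KD was 0.0064 beside a median member difference of -0.082. After block medians were removed from every gene, 35 members were lower and 6 higher in the libraries labelled KD, against 28.7% and 30.5% of all genes and 37.4% and 37.5% of genes at a mean of 8 or more, and 39 of the 46 called members were called in the same direction. For OE 21 were lower and 6 higher, against 16.6% and 22.2% of all genes and 27.2% and 28.6% of those at 8 or more, and 15 of 20 calls were kept. Members with blocks near 0 included MRPS34 (0.012), MRPS30 (0.023), MRPL10 (0.0055), MRPL28 (0.012), MRPS7 (-0.030), MRPL18 (0.019) and MRPL27 (0.0068). Why neighbouring genes moved together was not tested.

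A further feature shared by many members is another gene that starts near their own start on the opposite strand. Within 1000 bases, 22 members had a gene starting on the opposite strand, and 20 of these partners had values. The pairs were chosen after the values had been seen. In the libraries labelled KD both genes were called in 14 of the 20 pairs, in the same direction in 11, and across the 20 pairs the differences correlated at a Pearson r of 0.82. In those labelled OE both were called in 6 pairs, in the same direction in 4, with r at 0.36. The same search in the other protein-coding genes at a mean of 8 or more gave 1651 genes whose partner had values. Both were called in 48.1% for KD, in the same direction in 65.4% of these, with r at 0.36, and for OE the values were 25.7%, 71.1% and 0.28. A like direction in such pairs is thus not particular to the members, and the difference from this background was not tested. Both genes of a pair share their chromosome block. In many pairs, such as MRPS7 with GGA3 and MRPL14 with TMEM63B, the partner starts inside the member, so the genes overlap. Where exons overlap on opposite strands, unstranded reads may count for either gene. MRPL18 and TCP1, which encodes a subunit of the cytosolic chaperonin, both fell, TCP1 by 0.22 for KD (adjusted p = 7.2e-16) and 0.073 for OE (adjusted p = 2.0e-05). MRPL36 faces NDUFS6, a complex I subunit gene, which was at -0.18 for KD (adjusted p = 2.1e-08) and -0.13 for OE (adjusted p = 1.0e-05). MRPL57 faces SKA3, a gene of the kinetochore, which was at -0.073 (adjusted p = 0.00626) and -0.11 (adjusted p = 2.4e-04). Opposite directions occurred in the libraries labelled KD for MRPL47 with NDUFB5 (0.057), MRPS7 with GGA3 (0.11) and MRPL14 with TMEM63B (0.10), whose own members fell.

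**Figure D4:**
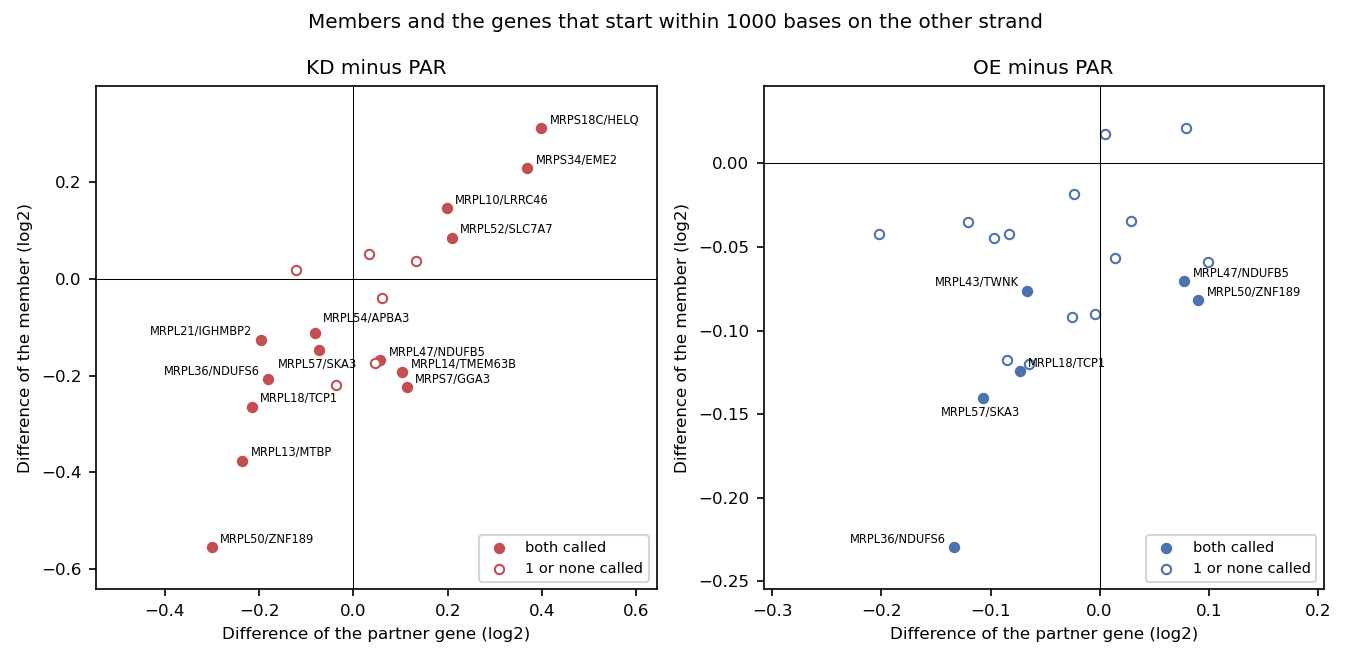
Difference of the member (log2, vertical) against that of the gene that starts within 1000 bases on the other strand (log2, horizontal), for KD minus PAR and OE minus PAR, with filled points where both were called. In the KD panel 11 of the 14 filled pairs lie in the quadrants of like sign.

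Proteins of the mitochondrial ribosome with other symbols were looked at as a list of 5, all with values. In the libraries labelled KD 3 fell by limma and the others were not called, and in those labelled OE 1 fell and 1 rose. Among genes at a mean of 8 or more 39.4% fell for KD, and 31.5% fell and 25.2% rose for OE, and 5 genes are too few to set against these shares. DAP3, a GTP-binding protein of the small subunit, had values of 13.14, 13.14 and 13.10 in the parental libraries, 12.98, 12.97 and 12.98 in those labelled KD and 13.10, 13.10 and 13.13 in those labelled OE, and it was low only in the KD libraries, with a difference of -0.15 (95% interval -0.18 to -0.12, adjusted p = 3.3e-10). AURKAIP1, also of the small subunit, had limma differences of -0.15 (adjusted p = 1.7e-07) for KD and -0.11 (adjusted p = 1.2e-04) for OE. CHCHD1 had a KD difference of -0.088 (adjusted p = 0.00777), no longer called at -0.063 after block medians were removed. PTCD3, which lies near the entry of the messenger RNA, was at -0.018 (adjusted p = 0.468) for KD, called at -0.054 after block medians were removed, and 0.077 (adjusted p = 0.00174) for OE, and GADD45GIP1 was called in neither line.

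Of 33 genes for assembly of the mitochondrial ribosome, 28 had values. Under the KD label 13 (46.4%) fell and 6 (21.4%) rose by limma, against 39.4% and 36.4% of genes at a mean of 8 or more, and under the OE label 12 (42.9%) fell and 3 (10.7%) rose, against 31.5% and 25.2%. TFB1M, which methylates the small subunit RNA, had values of 11.07, 11.03 and 11.01 in the parental libraries, 11.37, 11.32 and 11.36 in those labelled KD and 11.16, 11.16 and 11.11 in those labelled OE, with all KD libraries highest, a KD difference of 0.31 (95% interval 0.27 to 0.36, adjusted p = 1.6e-13) and an OE difference of 0.10 (adjusted p = 4.3e-04). METTL15, another methyltransferase for that RNA, rose by 0.23 (adjusted p = 6.2e-09) for KD. DHX30, an RNA helicase, had values of 12.84, 12.83 and 12.84 in the parental libraries, 12.35, 12.40 and 12.42 in those labelled KD and 12.71, 12.74 and 12.76 in those labelled OE, and its KD difference of -0.45 (95% interval -0.48 to -0.41, adjusted p = 2.5e-20) came with a block median of -0.30 and left -0.14. MPV17L2, a membrane protein that assists assembly, had differences of -0.37 (adjusted p = 1.6e-12) for KD and -0.23 (adjusted p = 1.7e-07) for OE. LRPPRC, which stabilises mitochondrial messenger RNA, rose by 0.10 (adjusted p = 3.4e-07) for OE, and the GTPase gene MTG2 had a difference of -0.19 (adjusted p = 2.0e-08) for OE.

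Of 20 genes for mitochondrial translation factors and related enzymes, 17 had values. Under the KD label 8 (47.1%) fell and 1 (5.88%) rose by limma, beside the same 39.4% and 36.4%, and under the OE label 7 (41.2%) fell and 2 (11.8%) rose, beside 31.5% and 25.2%. MRRF, the ribosome recycling factor, had values of 11.22, 11.22 and 11.20 in the parental libraries, 10.68, 10.70 and 10.69 in those labelled KD and 11.13, 11.11 and 11.10 in those labelled OE, with the KD libraries far below, and its KD difference of -0.53 (95% interval -0.57 to -0.48, adjusted p = 3.9e-20) came with a block median of -0.35 and left -0.18. Its OE difference of -0.10 (adjusted p = 3.1e-04) turned to 0.0031 after block medians were removed. MTRFR, which rescues stalled ribosomes, fell by 0.35 for KD (adjusted p = 1.8e-12). MTIF3, an initiation factor, rose by 0.15 (adjusted p = 9.4e-06) for KD. Its OE difference of 0.083 (adjusted p = 0.0136) lost its call without parental library 3 (0.063), without OE library 1 (0.071) and with centred libraries (0.065). TACO1, an activator of cytochrome oxidase subunit synthesis, had a difference of -0.15 (adjusted p = 6.9e-05) for OE and GTPBP3, an enzyme of tRNA modification, had -0.15 (adjusted p = 9.8e-06). The aminopeptidase gene METAP1D, at 0.078 (adjusted p = 0.0465) for OE, lost its call under 9 settings, including without parental library 1 (0.071) or 2 (0.073) and without OE library 1 (0.073), 2 (0.079) or 3 (0.082).

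The ribosomal RNAs of the mitochondrial genome rose in both lines. MT-RNR1, the small subunit RNA, had values of 13.49, 13.61 and 13.54 in the parental libraries, 13.79, 13.81 and 13.79 in those labelled KD and 13.85, 13.86 and 13.82 in those labelled OE. MT-RNR2, the large subunit RNA, had values of 15.62, 15.79 and 15.75 in the parental libraries, 16.37, 16.39 and 16.37 in those labelled KD and 16.07, 16.08 and 16.01 in those labelled OE. Every library of either line lay above every parental library for both RNAs. By limma the differences were 0.25 (95% interval 0.21 to 0.29, adjusted p = 2.3e-13) for KD and 0.30 (95% interval 0.26 to 0.33, adjusted p = 1.4e-14) for OE in MT-RNR1, and 0.66 (95% interval 0.61 to 0.70, adjusted p = 2.2e-22) and 0.33 (95% interval 0.29 to 0.38, adjusted p = 5.4e-14) in MT-RNR2. The libraries were made from messenger RNA, so how fully these ribosomal RNAs were captured, and whether equally in each group, cannot be read from the values.

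The median deviation from each gene's mean gives the members' shared level in each library. For the MRPL genes it was 0.043, 0.063 and 0.022 in the parental libraries, -0.070, -0.052 and -0.051 in those labelled KD and 0.010, -0.0078 and 0.014 in those labelled OE. For the MRPS genes it was 0.019, 0.035 and -0.0053, -0.031, -0.063 and -0.033 and 0.011, -0.0011 and 0.022 in the same order. For both sets of genes the libraries labelled KD were lowest. Those labelled OE lay between the other groups for the MRPL genes and overlapped the parental libraries for the MRPS genes. The cytosolic ribosomal proteins, as the most similar group of genes, had 75 members with values, of which 37 (49.3%) rose and 23 (30.7%) fell in the libraries labelled KD, against 36.4% and 39.4% of genes at a mean of 8 or more, at a median difference of 0.031. In those labelled OE 48 (64.0%) rose and 6 fell, against 25.2% and 31.5%, at a median of 0.052, so their median lay above 0 where that of both mitochondrial subunits lay below it. The difference between these groups of genes was not tested.

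**Figure D5:**
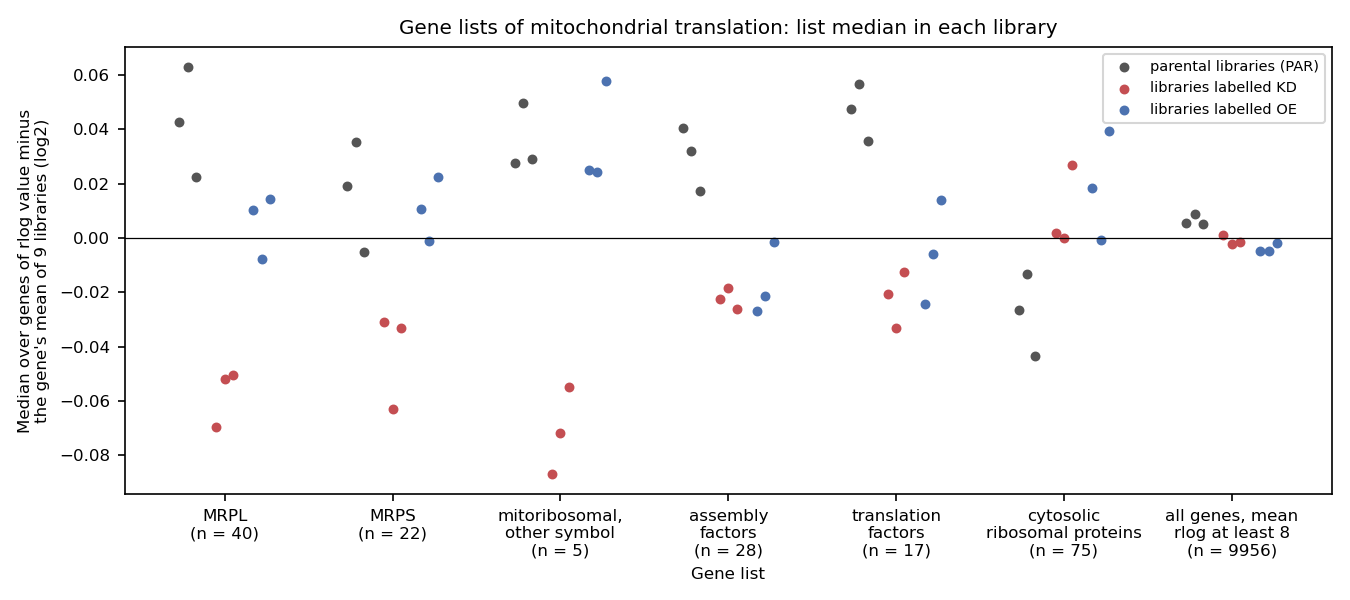
Median deviation (log2) of each list of genes from the genes' own means in each of the 9 libraries, by group. The MRPL and MRPS medians are below 0 in all 3 libraries labelled KD.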

How the data were processed

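RNA sequencing of 9 IMR-32 libraries was analysed, 3 each from parental cells and cells labelled as TRAP-1 knockdown or overexpression. The authors used cutadapt for trimming, hisat2 for alignment to GRCh38 and featureCounts for gene counts, dropped genes with few counts and deposited regularized log2 values, with DESeq2 named in the processing notes. Versions, annotation and strand setting are not stated. The paper gives 1 nominal depth for all libraries, and the depth of each cannot be read from the values. From these values limma 3.58.1 (R 4.3.3; lmFit, eBayes with a variance trend, 3 groups) gave differences, 95% intervals and Benjamini-Hochberg adjusted p over 22290 genes, with calls under 0.05. Symbols, lengths and positions came from GENCODE 44 (22195 genes matched), and Python 3.11.15, pandas 2.3.3 and matplotlib 3.10.9 were used. The fit was also run on simulated data with independent noise and few changed genes, unlike these data. That run checks the code and not the calls reported here.

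Named were the 4 largest called changes each way per line with libraries that did not overlap, for MRPL and MRPS genes apart. Also named were the 3 largest each way between lines, members called in opposite directions and the highest and lowest levels per length. Members of known role and the largest called changes of each list were named too. Lists held other ribosomal proteins of mitochondria, assembly genes, translation factors, mitochondrial ribosomal RNAs, cytosolic ribosomal proteins and markers of neuroblastoma, epithelial, mesenchymal, and blood or endothelial cells. The values of 1 marker are not reported here. Members and lists were chosen with earlier results of these data known. Alternatives were no variance trend, genes with a mean of at least 5, only the groups compared, a replicate block, median centring and quantile normalization. Others were removal of 20-Mb block medians, a difference over 0.1, subunits by structure, at most 10% shared exonic bases and each library left out. MRPS36 left out, nearby gene starts on the other strand and promoter motifs were chosen after seeing the data. Protein sequences were not used here.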

Additional observations from a re-analysis of the deposited data

How the results depend on the processing

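Of the called members, 34 of 46 for KD and 10 of 20 for OE were called in the same direction under all 13 settings. For OE minus KD it was 30 of 44. Without each library in turn the numbers were 38, 12 and 38. A required difference over 0.1 was not among the 13 settings. Some calls kept under all 13 fall short of it, such as MRPS14 for OE (0.090). For OE minus PAR the number of higher members was 1 with centred libraries, 5 with quantile normalization, 6 after removal of block medians and 0 where a difference over 0.1 was required, and it ran from 1 to 4 over the left-out libraries; lower members numbered 8 where over 0.1 was required. With at most 10% shared exonic bases 0% of members were higher, and among genes at 8 or more 31.5% were lower. The MRPL median for KD was -0.093 by structure. For OE the MRPL median was -0.056 centred and -0.020 after block removal, and the MRPS median was -0.048 and -0.011, and -0.038 to -0.011 over the left-out libraries. For OE minus KD 20 members were higher and 6 lower where over 0.1 was required, 7 were lower after block removal, and the MRPL median was 0.092 after it and 0.062 to 0.082 over the left-out libraries. Block removal turned MRPS18B to -0.016 and MRPS18C to -0.10 for KD, MRPS18C to 0.060 and MRPS2 to -0.0012 for OE minus KD, and MRRF to 0.0031 for OE; the cause was not tested. Between KD and PAR, deviations of equally numbered libraries correlated at -0.12, -0.081 and 0.021, and unequally numbered ones at -0.073 to 0.15. Between OE and PAR the values were -0.11, -0.030 and 0.0037, and -0.097 to 0.13. Replicate numbers thus did not pair either line with the parental libraries. Between KD and OE they were 0.22, 0.041 and 0.27, and -0.26 to 0.067. KD and OE libraries numbered 1 and 3 thus shared some deviation, which the main fit does not model. With a replicate block 9 members were higher and 38 lower for KD, 2 and 20 for OE, and 33 and 11 for OE minus KD.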

Other observations

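GRSF1, an RNA-binding protein of mitochondrial RNA granules and a member of the assembly list, lies on chromosome 4 like MRPL1 and MRPS18C but did not move with its neighbours in the libraries labelled KD. Its rlog values were 12.25, 12.30 and 12.28 in the parental libraries, 12.28, 12.29 and 12.30 in those labelled KD and 12.33, 12.33 and 12.33 in those labelled OE, so the parental and KD libraries overlapped, and its limma KD difference was 0.013 (95% interval -0.022 to 0.047, adjusted p = 0.564) beside a block median of 0.45. It was named after its value had been seen.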
